A study of Rattus norvegicus with 8 samples.

Results

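The imprinted Dlk1-Dio3 miRNA cluster was followed on 8 Agilent miRNA arrays of kidney cortex from male rats. Its members were taken by name: every rat miRNA on the array whose number is on a fixed list, from miR-127 to miR-770. All lettered copies and both arms were taken. The list leaves out some miRNAs of the locus, which are counted below. The rule found 82 of the 758 miRNAs on the array and used no measured value. The labels describe 4 groups with 2 arrays each. DOCA-EVs rats were nephrectomized, ate a diet with 1.5% sodium, were injected 2 times a week with the mineralocorticoid deoxycorticosterone acetate at 8 mg/kg, and from week 2 had extracellular vesicles from adipose mesenchymal cells injected into a vein each week. DOCA rats had the same surgery, diet and mineralocorticoid, with intravenous vehicle in place of the vesicles. UNX rats were nephrectomized, ate a diet with 0.50% sodium and received the soybean oil vehicle under the skin. SHAM rats were sham-operated and ate the standard sodium diet. Animals were killed at 9 weeks. The labels do not say that the 2 arrays of a group come from separate rats, so the p-values measure the spread between these arrays, which may be technical, and the small number of arrays limits the precision.

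The Dlk1-Dio3 locus is an imprinted domain: its protein-coding genes, Dlk1, Rtl1 and Dio3, are expressed from the paternal chromosome, and its long non-coding RNAs, among them Meg3, and its miRNAs from the maternal one. Its miRNAs are known for high levels in placenta, embryo and brain and low levels in most adult tissues. In mice, miR-127, miR-136, miR-431, miR-433 and miR-434 lie antisense to the Rtl1 coding sequence and pair with its transcript. In rat neurons the miRNAs from miR-379 to miR-410 are transcribed together in response to activity, and miR-134 limits the growth of dendritic spines through Limk1. In mouse kidney, miR-494 was described to target Atf3 after ischaemia, and miR-433 and miR-382 were described in fibrosis.

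The mature sequences below belong to the 4 members that the scanner software called detected on all 8 arrays, and capitals mark the seed, bases 2 to 8, which pairs with targets. They come from RefSeq, build GRCr8, in which 80 of the 82 members have an entry. miR-136-5p and miR-127-5p are named only.
miR-494-3p: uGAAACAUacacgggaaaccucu
miR-667-3p: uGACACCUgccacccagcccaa
miR-329-3p: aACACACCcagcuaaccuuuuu
miR-770-3p: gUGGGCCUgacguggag
All 4 are 3p arms from the plus strand of chromosome 6, at chr6:134550163-134550185 for miR-494-3p, chr6:134555392-134555413 for miR-667-3p, chr6:134547973-134547994 for miR-329-3p and chr6:134298129-134298145 for miR-770-3p. None shares its seed with another member. The seed of miR-329-3p also occurs in miR-362-3p, a miRNA of chromosome X that was detected on 1 array.

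Few members share a seed: the 80 sequences held 74 different seeds, and 5 seeds were shared between members. A pair and a trio with a shared seed are shown because they hold a tested member, miR-299a-5p, and the partner arm of miR-494-3p; they were chosen after their values were seen.
miR-299a-5p: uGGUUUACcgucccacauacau
miR-299b-5p: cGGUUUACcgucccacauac
miR-494-5p: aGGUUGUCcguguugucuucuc
miR-496-5p: aGGUUGUCcaugguguguuc
miR-410-5p: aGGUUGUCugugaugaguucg
miR-299a-5p and miR-299b-5p come from overlapping precursors on opposite strands and share a run of 19 bases. miR-299a-5p was detected on 6 arrays and miR-299b-5p on 1, and probes of such similar miRNAs may bind both, so their values are uncertain. The trio, which includes the 5p partner of miR-494-3p, was detected on no array.

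In GRCr8 the 82 members come from 44 precursors, all on chromosome 6 between Dlk1 and Dio3, over 282 kb at chr6:134298084-134579838. A gap of 189 kb splits them into a group of 12 precursors beside Meg3 and Rtl1, from Mir770 to Mir370, and a group of 32, from Mir379 to Mir410. Mir770 lies inside Meg3, and 5 precursors lie inside Rtl1. Only Mir299b and Mir3581, the precursor of miR-409b, are on the minus strand. In the Meg3 and Rtl1 group, 3 of 21 arms were detected on at least 1 array, and 1 of them, miR-770-3p, on all 8. In the Mir379 to Mir410 group, 12 of 61 arms were detected on at least 1 array, and 3 on all 8. Those 3, miR-329-3p, miR-494-3p and miR-667-3p, come from a stretch of 7.52 kb with 5 precursors and 9 arms, in which miR-543 and miR-495 were detected on no array. The array also holds 18 miRNAs of the same span that the rule does not name, and 1 of them, miR-1188-3p, was detected, on all 8 arrays.

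**Figure D1:**
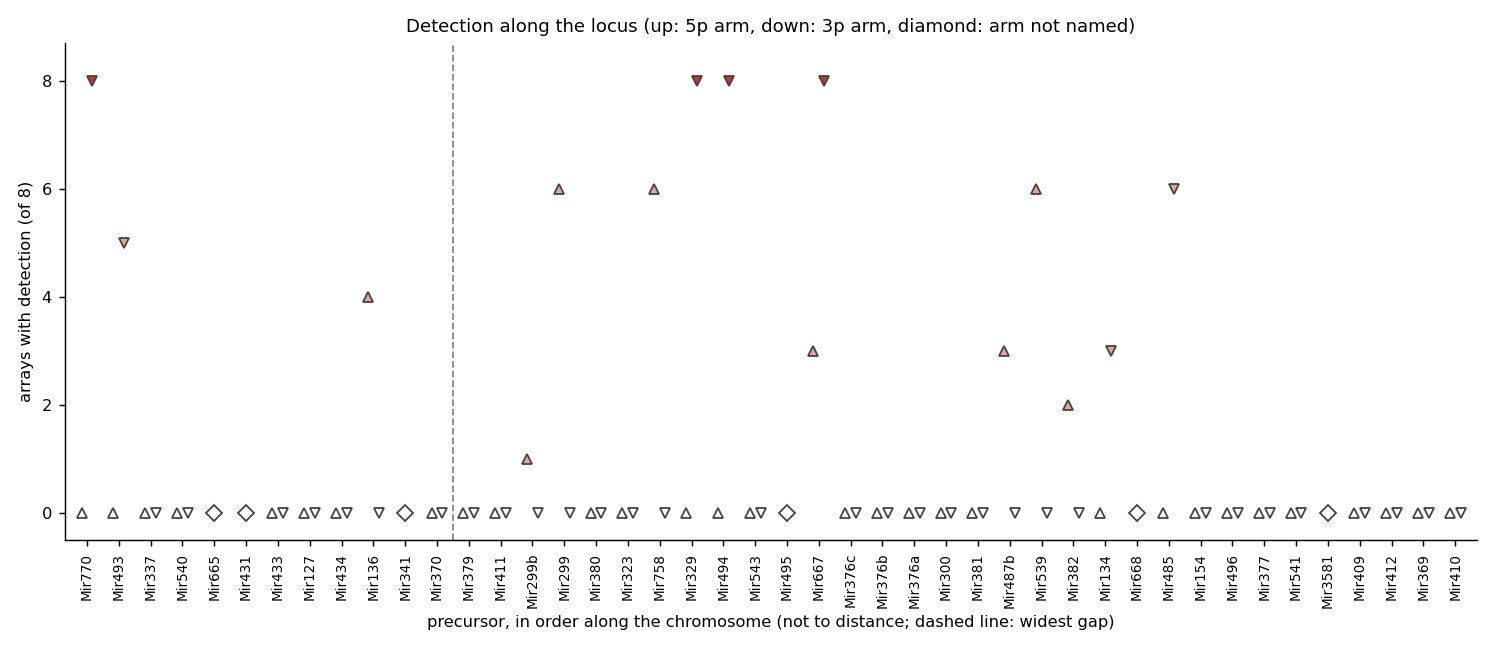
Number of arrays, of 8, on which each of the 82 members was detected, with the 44 precursors in their order along the chromosome; up triangles are 5p arms, down triangles 3p arms and diamonds members with no arm in their name, dark for 8 arrays and open for 0. Most members sit at 0, and the 3 detected on all arrays right of the dashed line come from a stretch of 5 precursors.

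Of the 82 members, 67 were detected on no array. These include both arms of miR-127, miR-154, miR-300, miR-323, miR-337, miR-369, miR-370, miR-376a, miR-376b, miR-376c, miR-377, miR-379, miR-380, miR-381, miR-409a, miR-410, miR-411, miR-412, miR-433, miR-434, miR-496, miR-540, miR-541 and miR-543. They also include miR-341, miR-409b, miR-431, miR-495, miR-665 and miR-668, which have no arm in their name. The remaining ones are the undetected arms of precursors whose other arm was detected: miR-134-5p, miR-136-3p, miR-299a-3p, miR-299b-3p, miR-329-5p, miR-382-3p, miR-485-5p, miR-487b-3p, miR-493-5p, miR-494-5p, miR-539-3p, miR-758-3p and miR-770-5p. The median processed signal of their probes was between -1.63 and -0.09 on the 8 arrays, where negative control spots averaged 2.00 to 3.31. The highest of these members lay above that average on every array, from 4.45 on DOCA replicate 2 to 7.89 on SHAM replicate 1. The members antisense to Rtl1 were not detected on any array, apart from miR-136-5p on 4 arrays. Both arms were detected for Mir667 alone among the 14 precursors with a detected arm. The GC content of the 14 detected members with a sequence had a median of 53.5% (40.9 to 70.6%), and that of the 66 undetected ones a median of 47.6% (23.8 to 72.7%).

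Detection counts differed between arrays of the same group as well as between groups, and they were not tested. The 15 detected members were all called on DOCA-EVs replicate 1, 4 on DOCA-EVs replicate 2, 9 and 4 on the DOCA arrays, 12 and 9 on the UNX arrays, and 13 and 11 on the SHAM arrays. At least 1 array of a group detected 15 members in DOCA-EVs, 9 in DOCA, 13 in UNX and 13 in SHAM. Both arrays of a group detected 4 members in DOCA-EVs, 4 in DOCA, 8 in UNX and 11 in SHAM. Over all 758 miRNAs the same count was 216 in DOCA-EVs, 204 in DOCA, 220 in UNX and 228 in SHAM. DOCA-EVs replicate 2 and DOCA replicate 2 also gave weaker hybridisation controls, with 1028 to 1136 units for a control probe that read 2200 to 2401 units elsewhere. Of the 676 other miRNAs they detected 221 and 204, where the remaining 6 arrays detected 221 to 249. The part of the weak controls in the members' detection was not tested. A miRNA was counted as above background when at least 1 of its probes stood well above it, a stricter measure than detection. By it, miR-494-3p and miR-667-3p were above background on all 8 arrays, and 11 members on DOCA-EVs replicate 1 against 2 to 5 on each of the others. DOCA-EVs replicate 1 also detected the most of the 676 other miRNAs, 249. Whether its higher count is particular to the members was not tested.

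**Figure D2:**
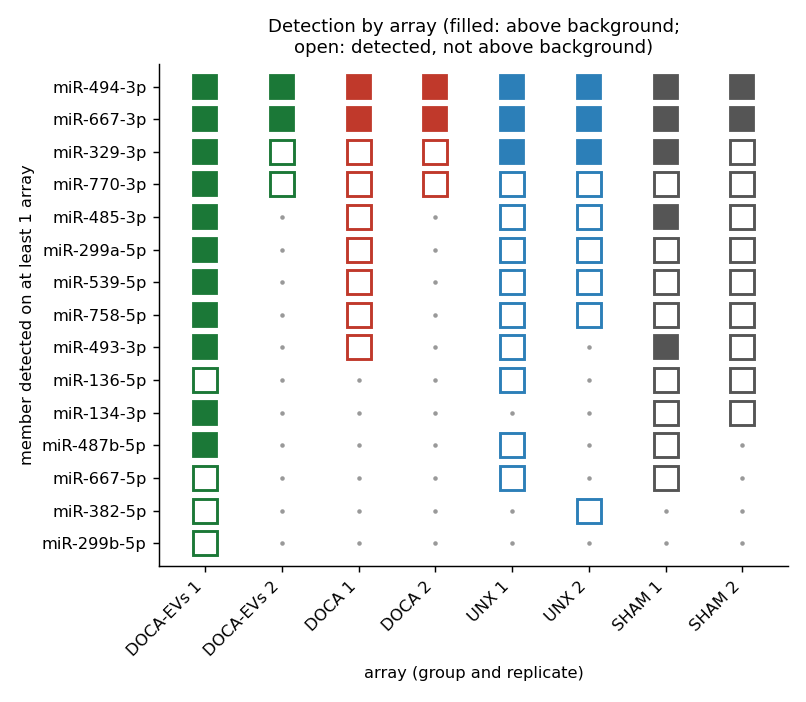
Detection of the 15 members called on at least 1 array, by array; filled squares are above background, open squares detected but not above background, and dots not detected. The left column, DOCA-EVs replicate 1, is full, and DOCA-EVs replicate 2 and DOCA replicate 2 show 4 squares each.

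A miRNA was tested when both arrays of at least 1 group detected it, which kept 242 of the 758 miRNAs and 11 of the 82 members. All 11 were detected on both SHAM arrays, and 3 of them, miR-134-3p, miR-136-5p and miR-493-3p, entered through SHAM alone, that is, at least 1 array of every other group did not detect them, so their direction against SHAM is no support. Differences were tested with limma over all 242 miRNAs, and a call needed a Benjamini-Hochberg adjusted p under 0.05. No member passed in UNX against SHAM, where 0% of all miRNAs passed, in DOCA against UNX (1.65%) or in DOCA-EVs against DOCA (0%). None passed in DOCA against SHAM (0.826%), DOCA-EVs against UNX (2.48%) or DOCA-EVs against SHAM (0%). None passed between the DOCA-EVs and DOCA arrays together and the UNX and SHAM arrays together (6.61%), or in the test of any difference among the 4 groups (2.48%). At an unadjusted p under 0.05 the member counts were 3 in UNX against SHAM (6.61% of all miRNAs), 2 in DOCA against UNX (23.1%), 1 in DOCA-EVs against DOCA (10.3%), 0 in DOCA against SHAM (16.1%), 1 in DOCA-EVs against UNX (12.8%) and 1 in DOCA-EVs against SHAM (13.2%). The same counts were 0 in the pooled comparison (24%) and 2 in the test of any difference (20.2%). Comparisons that share a group share its arrays.

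miR-494-3p had the smallest p of the 11 members in the test of any difference among the groups. Its log2 normalized signal was 8.91 and 9.26 on the DOCA-EVs arrays, 9.62 and 9.81 on the DOCA arrays, 9.08 and 9.31 on the UNX arrays, and 9.95 and 10.11 on the SHAM arrays. Every pair of groups was free of overlap except DOCA-EVs and UNX, and the replicates of a group differed by at most 0.35. From low to high, the means were 9.09 ± 0.25 in DOCA-EVs, 9.20 ± 0.16 in UNX, 9.71 ± 0.14 in DOCA and 10.03 ± 0.11 in SHAM (SD, n = 2 each), and DOCA-EVs and UNX did not differ beyond their spread.

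Set against SHAM, miR-494-3p was 1.78-fold lower in UNX, a log2 difference of -0.84 ± 0.18 (SE; 95% interval -1.27 to -0.40), with an unadjusted p of 0.003 and a limma adjusted p of 0.36. DOCA was 1.43-fold higher than UNX (0.52 ± 0.18, interval 0.09 to 0.95, adjusted p = 0.14 in limma). DOCA-EVs was 1.55-fold lower than DOCA (-0.63 ± 0.18, interval -1.06 to -0.20, adjusted p = 0.27 in limma). The replicate number equals the row of the slide, and each difference had the same sign and similar size in both rows: -0.87 and -0.80 for UNX against SHAM, 0.54 and 0.50 for DOCA against UNX, and -0.71 and -0.55 for DOCA-EVs against DOCA. With the replicate number as a block the adjusted p was 0.16, 0.078 and 0.12, in the same order. The 2 last differences depend on the scaling between arrays: without any, they were -0.06 and -0.18, while the median of all 242 miRNAs stood at -0.50 and 0.44. Of the leukocyte miRNAs, 1 passed in DOCA against UNX: miR-155-5p, a miRNA of activated leukocytes, rose by 1.38 ± 0.16 (adjusted p = 0.018 in limma). The median of the 4 tested leukocyte miRNAs was 0.92. miR-142-3p, miR-223-3p and miR-150-5p did not pass (adjusted p = 0.10, 0.073 and 0.12 in limma). Their part in the difference of miR-494-3p was not tested. In whole cortex, fewer cells of a type and less miRNA per cell cannot be told apart.

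The difference nearest to the threshold was that of DOCA-EVs against SHAM. It was -0.94 ± 0.18 for miR-494-3p (interval -1.38 to -0.51), 1.93-fold lower in DOCA-EVs, with an adjusted p of 0.057 in limma. The slide rows gave -1.05 and -0.85. With the replicate number as a block the adjusted p was 0.028, which passes the threshold, and the test of any difference among the groups went likewise, with 0.098 without the block and 0.037 with it. DOCA against SHAM gave -0.32 ± 0.18 (adjusted p = 0.44 in limma), and DOCA-EVs against UNX gave -0.11 ± 0.18 (interval -0.54 to 0.32, adjusted p = 0.86 in limma). The array has 2 probes for miR-494-3p, both well above background on all 8 arrays, and they ran the same way: -1.06 and -0.82 for UNX against SHAM, 0.54 and 0.52 for DOCA against UNX, -0.39 and -0.65 for DOCA-EVs against DOCA, and -0.91 and -0.95 for DOCA-EVs against SHAM. In the same order, their log2 levels were 5.35 to 6.64 and 8.76 to 9.97. The summed signal therefore comes mostly from the brighter probe.

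**Figure D3:**
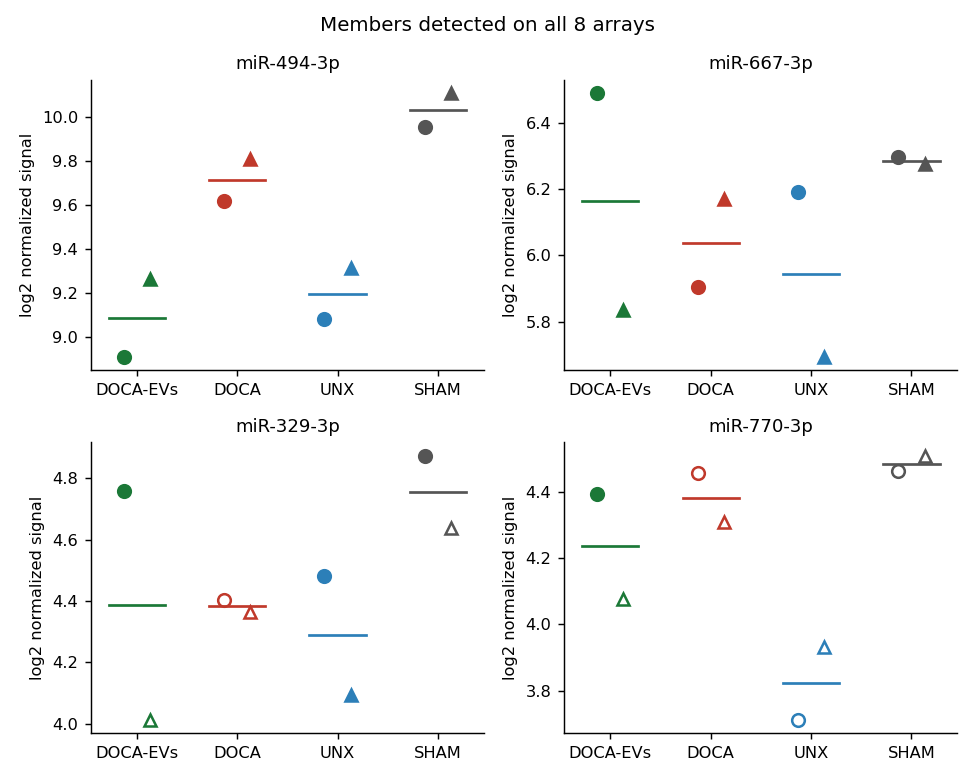
Log2 normalized signal of the 4 members detected on all 8 arrays; circles are replicate 1, triangles replicate 2, bars the group means, and filled symbols stand above background. For miR-494-3p the DOCA-EVs and UNX arrays lie between 8.91 and 9.31 and the DOCA and SHAM arrays between 9.62 and 10.11; each panel has its own axis.

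miR-667-3p, the other member above background on all arrays, showed no such separation. Its log2 signal was 6.49 and 5.84 in DOCA-EVs, 5.91 and 6.17 in DOCA, 6.19 and 5.69 in UNX, and 6.30 and 6.28 in SHAM. The arrays of DOCA-EVs span nearly the whole range, and those of SHAM lie within 0.02 of each other. The UNX arrays were both below the SHAM arrays, by -0.34 ± 0.27 on average (adjusted p = 0.63 in limma). DOCA differed from UNX by 0.10 ± 0.27 (interval -0.56 to 0.75, adjusted p = 0.92 in limma). DOCA-EVs differed from DOCA by 0.13 ± 0.27 (interval -0.53 to 0.78, adjusted p = 1.00 in limma). The interval of DOCA against UNX includes the 0.52 measured for miR-494-3p. That of DOCA-EVs against DOCA leaves out the -0.63 measured for miR-494-3p. Its 5p partner, miR-667-5p, was detected on 3 arrays, 1 each of DOCA-EVs, UNX and SHAM.

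miR-329-3p, from the precursor next to Mir494, had a log2 signal of 4.76 and 4.01 in DOCA-EVs, 4.40 and 4.37 in DOCA, 4.48 and 4.10 in UNX, and 4.87 and 4.64 in SHAM. The SHAM arrays were above those of UNX and DOCA, and overlapped with DOCA-EVs. The difference was -0.47 ± 0.27 for UNX against SHAM (adjusted p = 0.63 in limma), 0.10 ± 0.27 for DOCA against UNX, and 0.00 ± 0.27 for DOCA-EVs against DOCA (interval -0.66 to 0.66). It was above background on 1 DOCA-EVs array, no DOCA array, both UNX arrays and 1 SHAM array. Since it stood above background on no DOCA array, the fold of DOCA against SHAM is given as a bound against the dimmest signal above background. This bound was 1.14-fold lower in DOCA. The log2 interval of the measured difference was -1.03 to 0.29, with an adjusted p of 0.53 in limma.

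miR-770-3p, from the precursor inside Meg3, had a log2 signal of 4.39 and 4.08 in DOCA-EVs, 4.46 and 4.31 in DOCA, 3.71 and 3.93 in UNX, and 4.46 and 4.51 in SHAM. Both UNX arrays were below the arrays of every other group. The differences were -0.66 ± 0.16 for UNX against SHAM (unadjusted p = 0.006, adjusted p = 0.36 in limma), 0.56 ± 0.16 for DOCA against UNX (unadjusted p = 0.013, adjusted p = 0.10 in limma) and -0.15 ± 0.16 for DOCA-EVs against DOCA (adjusted p = 0.93 in limma). Although detected on all 8 arrays, it was above background on DOCA-EVs replicate 1 alone, so these differences come from signals near background and no fold is given for them. They also depend on the processing: UNX against SHAM was -0.02 with normexp and quantile normalization, and DOCA against UNX was 0.03 without scaling between arrays. The normexp correction added an offset of 50, which by itself shrinks log2 differences of such low signals. As a bound, DOCA-EVs was 1.05-fold higher than UNX (log2 interval of the measured difference 0.02 to 0.81, unadjusted p = 0.042, adjusted p = 0.36 in limma).

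**Figure D4:**
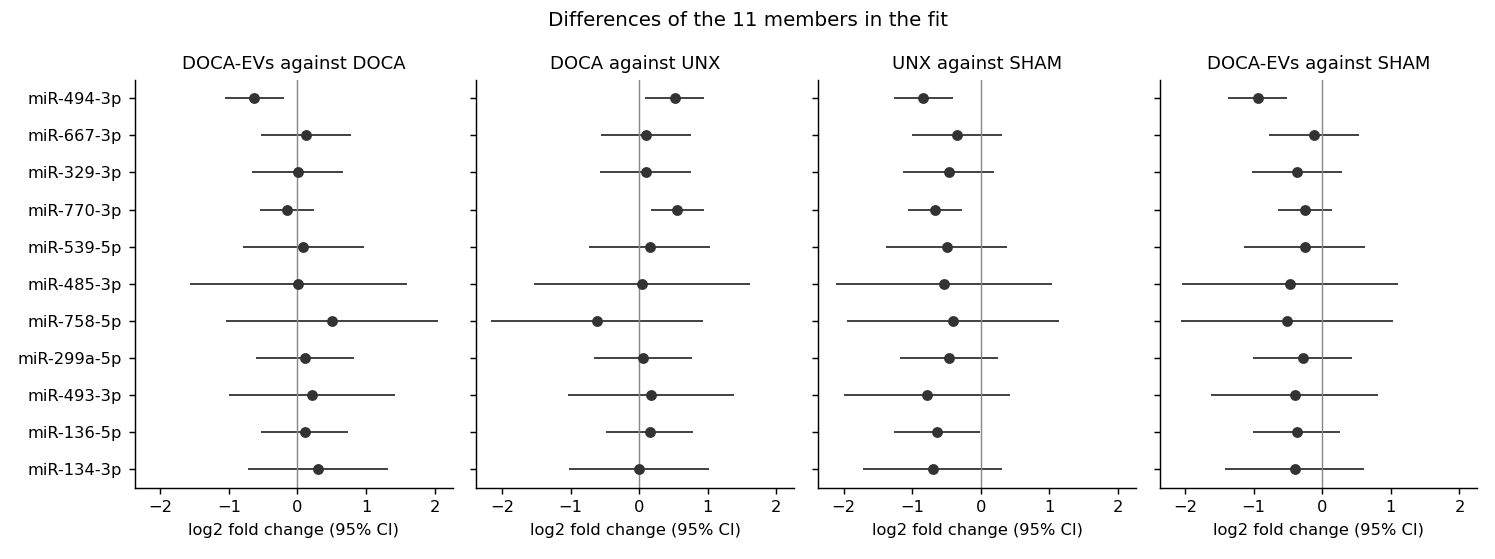
Log2 fold change of the 11 tested members with its 95% interval in 4 comparisons, on one common scale; the vertical line marks no difference. miR-494-3p has intervals that leave out 0 in all 4 panels, miR-770-3p in DOCA against UNX and UNX against SHAM, miR-136-5p narrowly in UNX against SHAM, and no adjusted p passed the threshold.

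The 7 tested members that some arrays did not detect were miR-485-3p, miR-539-5p, miR-758-5p and miR-299a-5p (6 arrays each), miR-493-3p (5), miR-136-5p (4) and miR-134-3p (3). miR-485-3p showed the widest replicate spread, with a log2 signal of 5.60 and 3.51 in DOCA-EVs, 4.88 and 4.20 in DOCA, 4.72 and 4.27 in UNX, and 5.09 and 4.97 in SHAM. miR-134-3p, the 3p partner of the neuronal miR-134-5p, had 4.85 and 3.66 in DOCA-EVs, 4.15 and 3.76 in DOCA, 4.22 and 3.69 in UNX, and 4.86 and 4.46 in SHAM. miR-136-5p, antisense to Rtl1 in mice, had 4.36 and 4.00 in DOCA-EVs, 4.09 and 4.06 in DOCA, 4.29 and 3.54 in UNX, and 4.56 and 4.54 in SHAM, and was above background on no array.

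In the other 4 members, as in miR-485-3p, miR-134-3p and miR-136-5p, replicate 1 was above replicate 2 in all 3 nephrectomized groups. miR-493-3p had a log2 signal of 5.19 and 4.02 in DOCA-EVs, 4.70 and 4.09 in DOCA, 4.76 and 3.69 in UNX, and 5.12 and 4.90 in SHAM. miR-539-5p had 6.04 and 5.01 in DOCA-EVs, 5.64 and 5.24 in DOCA, 5.54 and 5.03 in UNX, and 5.72 and 5.84 in SHAM. miR-758-5p had 4.77 and 3.70 in DOCA-EVs, 4.57 and 2.88 in DOCA, 4.77 and 3.92 in UNX, and 4.92 and 4.58 in SHAM. In these 3 the SHAM arrays lay closest together. miR-299a-5p had 5.04 and 4.15 in DOCA-EVs, 4.65 and 4.32 in DOCA, 4.43 and 4.42 in UNX, and 4.95 and 4.81 in SHAM, and its UNX arrays lay closest together.

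**Figure D5:**
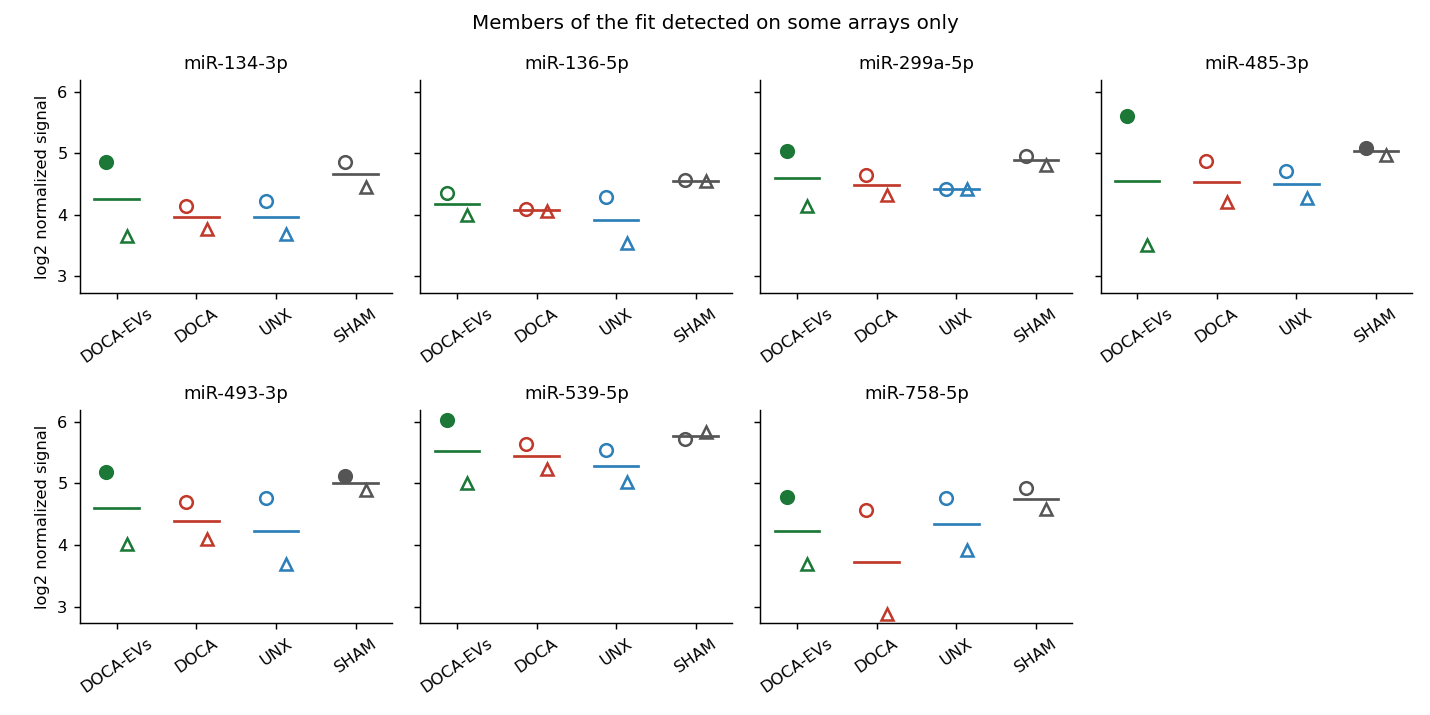
Log2 normalized signal of the 7 tested members that were not detected on every array, on one common axis; circles are replicate 1, triangles replicate 2, bars the group means, and filled symbols stand above background. In DOCA-EVs the circle lies above the triangle in every panel, and the SHAM arrays lie between 4.46 and 5.84.

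Over the 11 tested members, replicate 1 exceeded replicate 2 by a median of 0.89 in DOCA-EVs (10 of 11 members), 0.32 in DOCA (9), 0.50 in UNX (9) and 0.13 in SHAM (8). The median over all 242 miRNAs was -0.01 in DOCA-EVs, 0.03 in DOCA, 0.02 in UNX and 0.02 in SHAM. Over the 43 other tested miRNAs that were not detected on every array, it was 0.28 in DOCA-EVs, 0.32 in DOCA, 0.17 in UNX and 0.01 in SHAM. miR-494-3p was the exception in DOCA-EVs, with replicate 1 lower by 0.35. DOCA-EVs replicate 1 was the highest of the 8 arrays for 5 members, and DOCA-EVs replicate 2 the lowest for 5. Among the 7 members not detected on every array, the 2 DOCA-EVs arrays differed by 0.36 (miR-136-5p) to 2.09 (miR-485-3p).

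None of these 7 members passed the threshold in any comparison, with limma adjusted p-values from 0.63 to 0.80 in UNX against SHAM, 0.70 to 1.00 in DOCA against UNX, and 0.95 to 1.00 in DOCA-EVs against DOCA. Their log2 differences lay between -0.78 and -0.40 for UNX against SHAM, between -0.62 and 0.17 for DOCA against UNX, and between 0.01 and 0.51 for DOCA-EVs against DOCA. In UNX against SHAM miR-485-3p was 1.45-fold lower in UNX (log2 interval -2.11 to 1.04, adjusted p = 0.70 in limma). No UNX array and 1 of 2 SHAM arrays were above background. The UNX levels were not below the dimmest signal above background, so this fold is the measured difference and not a bound. In DOCA against SHAM no DOCA array was above background for miR-485-3p, and a bound set by the dimmest signal above background was 1.17-fold lower in DOCA. The measured log2 difference was -0.49 (interval -2.07 to 1.09, adjusted p = 0.64 in limma). As miR-485-3p was detected on both SHAM arrays and on 1 DOCA array, its direction against SHAM is no support. In DOCA-EVs against UNX, 5 of the 7 had a higher DOCA-EVs mean and were above background on DOCA-EVs replicate 1 but no UNX array. miR-758-5p was above background on the same array alone, but its DOCA-EVs mean was lower than that of UNX. Its log2 difference was -0.11 (interval -1.65 to 1.43), and no bound is given for it. The bounds were 1.06-fold higher in DOCA-EVs for miR-134-3p and 1.18-fold for miR-493-3p. The folds of 1.13 for miR-299a-5p, 1.18 for miR-539-5p and 1.04 for miR-485-3p are measured differences and not bounds. Their UNX levels were not below the dimmest signal above background. The log2 intervals of all 5 spanned both directions. Over the 7 members the adjusted p of this comparison ran from 0.81 to 0.98 in limma. In these 5 the 2 DOCA-EVs arrays lay on either side of the UNX arrays or overlapped with them.

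Taken over the 11 tested members, the median log2 difference was 0.11 in DOCA-EVs against DOCA, where it was 0.00 over all 242 miRNAs, and 0.10 in DOCA against UNX, where it was 0.08. It was -0.54 in UNX against SHAM, beside -0.12 over all miRNAs, and -0.40 in DOCA against SHAM, beside -0.06. It was -0.37 in DOCA-EVs against SHAM, beside -0.05. In UNX against SHAM both UNX arrays were below both SHAM arrays for 10 of 11 members, and for 47.5% of all miRNAs. In DOCA against SHAM both DOCA arrays were below for 11 of 11, and for 39.7% of all miRNAs, and in DOCA-EVs against SHAM for 3, and for 19.8%. Because every tested member had been detected on both SHAM arrays, these values against SHAM describe the members that passed the filter and not the cluster. The medians also moved with the processing and with single arrays: from -0.75 to -0.04 in UNX against SHAM, -0.52 to 0.35 in DOCA against UNX, -0.34 to 0.56 in DOCA-EVs against DOCA, and -1.46 to -0.04 in DOCA against SHAM. In DOCA-EVs against SHAM the median ran from -0.85 to 0.16, and it was 0.16 without DOCA-EVs replicate 2. Against other groups the same count was 2 higher in DOCA than in UNX (31.4% of all miRNAs), miR-494-3p and miR-770-3p, and 1 lower in DOCA-EVs than in DOCA (11.6%), miR-494-3p. It was 1 higher in DOCA-EVs than in UNX (21.5%), miR-770-3p.

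The 4 members detected without entering the test were miR-487b-5p (3 arrays), miR-667-5p (3), miR-382-5p (2) and miR-299b-5p (1), and each was detected on DOCA-EVs replicate 1. miR-487b-5p, from the precursor between Mir381 and Mir539, had a log2 signal of 4.94 and 2.81 in DOCA-EVs, 3.80 and 2.92 in DOCA, 4.14 and 3.38 in UNX, and 4.55 and 4.11 in SHAM. miR-382-5p, whose gene was described in mouse kidney fibrosis, had 4.05 and 3.04 in DOCA-EVs, 3.65 and 2.65 in DOCA, 3.96 and 3.66 in UNX, and 4.17 and 4.01 in SHAM. It was called on DOCA-EVs replicate 1 and UNX replicate 2, and on neither SHAM array. Every detected signal of a member was at least 3.00 times the error the software gave for it. The detection flag and this error come from the same software, so the ratio is no separate support for detection. None of the values of these 4 members was tested.

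Other imprinted loci give a comparison outside the cluster, with miR-335 of Mest, miR-483 of Igf2, miR-675 of H19, and miR-296 and miR-298 of Gnas. Of their 9 arms on the array, 3 entered the test, miR-483-5p, miR-483-3p and miR-296-5p, each detected on all 8 arrays, 4 were detected on no array, and 0 passed the threshold in any comparison. miR-483-5p had a mean log2 signal of 6.01 in DOCA-EVs, 6.45 in DOCA, 5.93 in UNX and 6.39 in SHAM, and a difference of 0.52 ± 0.17 in DOCA against UNX (adjusted p = 0.12 in limma). miR-296-5p had 4.31 in DOCA-EVs, 4.90 in DOCA, 4.33 in UNX and 4.74 in SHAM, and differences of -0.60 ± 0.15 in DOCA-EVs against DOCA (adjusted p = 0.19 in limma) and 0.58 ± 0.15 in DOCA against UNX (adjusted p = 0.085 in limma). For miR-483-5p and miR-296-5p, as for miR-494-3p, the DOCA-EVs and UNX means were below the DOCA and SHAM means, and the likeness was not tested. miR-483-3p did not share this order, with means of 4.68 in DOCA-EVs, 4.59 in DOCA, 4.36 in UNX and 4.75 in SHAM.

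All 5 kidney tubule miRNAs, among them miR-192-5p and miR-200b-3p, were detected on all 8 arrays, with a log2 summed signal of 12.67 to 12.92 in DOCA-EVs, 12.59 to 12.61 in DOCA, 12.98 to 13.08 in UNX and 12.87 to 12.90 in SHAM. miR-192-5p fell in DOCA-EVs against UNX (adjusted p = 0.040 in limma), and its difference in DOCA against UNX was -0.65 ± 0.14 (adjusted p = 0.063 in limma). Of 5 leukocyte miRNAs, 4 were detected on all arrays and miR-142-5p on none, with a log2 sum of 8.45 to 8.72 in DOCA-EVs, 8.88 to 9.03 in DOCA, 8.10 to 8.14 in UNX and 8.23 in SHAM. The 3 erythrocyte miRNAs summed to 7.24 to 7.29 in DOCA-EVs, 6.87 to 8.76 in DOCA, 7.93 to 8.37 in UNX and 8.16 to 8.23 in SHAM. The 3 endothelial and smooth muscle miRNAs, all detected on all arrays, summed to 10.89 to 11.21 in DOCA-EVs, 11.01 to 11.14 in DOCA, 11.27 to 11.28 in UNX and 11.24 to 11.25 in SHAM. The 2 endocrine miRNAs summed to 4.15 to 4.53 in DOCA-EVs, 3.74 to 4.19 in DOCA, 4.60 to 4.63 in UNX and 4.96 to 5.10 in SHAM, and miR-375-3p, detected on 4 arrays, fell in DOCA against UNX (adjusted p = 0.033 in limma). Its DOCA mean of 2.38 was the value given to signals under the floor, so the size and p-value of this fall depend on the floor. miR-7a-5p, detected on 1 array, did not enter the test. The part of these markers in the members' differences was not tested. Of 7 nerve miRNAs, examined because the cluster is known from brain, miR-124-3p, miR-9a-3p, miR-129-5p and miR-138-5p were detected on no array, whereas miR-128-3p was detected on 7 arrays, miR-219a-5p on 3 and miR-9a-5p on 2. The log2 of the summed nerve signal was 6.11 to 6.41 in DOCA-EVs, 6.02 to 6.15 in DOCA, 6.21 to 6.23 in UNX and 5.94 to 6.01 in SHAM. Part of this sum is floor value, since miR-124-3p, miR-129-5p and miR-138-5p had the floor mean of 2.38 in every group. All 3 mesenchyme miRNAs were detected on all arrays, with a log2 sum of 9.76 to 10.63 in DOCA-EVs, 9.85 to 10.75 in DOCA, 9.59 to 9.68 in UNX and 9.68 in SHAM.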

How the data were processed

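MicroRNAs were measured in 8 renal cortex samples on 1 slide, 1 array each, from 100 ng of total RNA labelled with Cy3, per the labels. The deposited values are each spot's processed intensity, background-subtracted by Agilent Feature Extraction 11.5.1.1 (protocol miRNA_1105_Oct12, design 070154), per the file headers, and not normalized between arrays. Other columns used are the deposited median spot and background intensity, the total signal per miRNA and flags, per the file headers. The deposited series table held the same intensity values, with a largest difference of 0. The headers name build rn4; positions here are those of RefSeq in GRCr8.

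Outlier spots were left out and the processed signal was averaged per probe. Each array was scaled to its 75th percentile, taken over the 271 probes well above background on all arrays. Probe values under 2.59, the mean SD of the negative controls, were set to 2.59, the probes of a miRNA were summed, and log2 was taken. The 242 miRNAs detected on both arrays of at least 1 group were fitted in R 4.3.3 with limma 3.58.1, two-sided, with a mean for each group, 4 residual degrees of freedom and Benjamini-Hochberg adjustment over the 242. The fit was tested on simulated data. Exact permutation was not used, because with 2 arrays a group its smallest p is 0.333. The 95% interval of a difference reached a median of 0.47 to either side on the log2 scale.

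A miRNA counted as above background where a probe of it was well above background on 0.5 or more of its spots. Where no array of the lower group met this, the fold is a bound, each array of that group taking the higher of its own level and that of its dimmest miRNA above background. Where its own levels were the higher on every array, the fold equals the measured difference and is no bound. The bounds take no account of the spread between arrays.

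Replicate number and slide row coincide, and so do group and slide column, which cannot be told apart. Arrays that share a number deviated together from their group means (r over miRNAs 0.245 to 0.557 in the 6 group pairs; miRNAs are not independent replicates). No replicate pair held identical values.

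Alternatives were the scaling, the background correction, the floor, the filter, the summary of probes, array weights, the replicate number as a block and leaving out each array. The normexp correction used the median spot signal, since the mean was not among the columns used. It added an offset of 50, which by itself shrinks the log2 differences of low signals wherever the ranges include it. The members and lists were chosen with earlier results of these data known. By the rule for naming, every tested member and every detected member is named, with values on each array for those detected on all arrays, and other miRNAs come from the lists; the other values on each array, miR-362-3p, miR-1188-3p and the sequences beyond the 4 were added after values were seen.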

Additional observations from a re-analysis of the deposited data

How the results depend on the processing

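No member passed the threshold in any of the 8 tests, and 165 of the 176 recounts under 22 alternatives also gave 0. Leaving out each of the 8 arrays in turn gave 0 throughout, from 0 to 0 in every test, with the lone array of a group assumed to vary like the others. The 11 recounts that differed all called miR-494-3p. In DOCA-EVs against SHAM the count was 1 with normexp and quantile normalization (adjusted p = 0.040), with the software's total signal (0.033), over the miRNAs detected on all 8 arrays (0.044), and with the replicate number as a block (0.028). With the scaling over the 412 probes of miRNAs detected on all arrays, chosen after seeing the data, the count was 1 in DOCA-EVs against SHAM (0.035), DOCA against SHAM (0.031), the pooled comparison (0.035) and the test of any difference (0.033). That test also gave 1 with array weights and 1 with the replicate block. With array weights UNX against SHAM gave 2, miR-494-3p and miR-770-3p (adjusted p = 0.035 for both). The cause was not tested.

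Over the processing alternatives the log2 difference of miR-494-3p lay between -1.15 and -0.75 in DOCA-EVs against SHAM, -0.92 and -0.51 in UNX against SHAM, -0.64 and -0.18 in DOCA-EVs against DOCA, and -0.06 and 0.53 in DOCA against UNX. Leaving out single arrays gave -1.12 to -0.77 in DOCA-EVs against SHAM, -0.95 to -0.72 in UNX against SHAM, -0.81 to -0.45 in DOCA-EVs against DOCA and 0.40 to 0.63 in DOCA against UNX. In DOCA-EVs against UNX it ran from -0.29 without DOCA-EVs replicate 2 to 0.07 without DOCA-EVs replicate 1. Without both arrays with weak hybridisation controls, an alternative chosen after seeing the data, the differences were -1.12 in DOCA-EVs against SHAM, -0.71 in DOCA-EVs against DOCA and 0.42 in DOCA against UNX (limma adjusted p = 0.081, 0.16 and 0.18). With 2 arrays in a group and 9 of the 11 tested members not above background on every array, small changes of the cluster were not detectable at this signal.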
